A study of Rattus norvegicus with 6 samples.

Results

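The genes described here are the histone genes of the mRNA table: every row whose gene name begins with Hist1h to Hist4h, H1f, H2a, H2b or H3f. The rule found 48 rows among 16551. Of these, 39 carry names of the replication-dependent families (Hist1, Hist2 and Hist3; none began with Hist4h), and 9 carry names of variants. The cells were primary cells of rat dorsal root ganglia, taken from the lower lumbar and sacral levels. The group labelled DM (3 samples) was cultured for 48 h in high-glucose medium (45 mmol/L), and the control group (3 samples) in normal culture. No genotype, sex or age was given, and neither was the glucose level of the control medium. No label states outright that DM is the high-glucose group, and it was read so here. The word used for samples of a group is duplicates, with no separate cultures or animals named. The p-values thus rest on a spread between samples that could be technical.

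Histones H2A, H2B, H3 and H4 form the protein core around which DNA is wound, and H1 is the linker histone that binds between cores. Replication-dependent histone genes lie in clusters, have no introns, and are expressed mainly in S phase, when new DNA must be packed. Their mRNAs mostly end in a stem-loop in place of a poly(A) tail. Variant genes lie outside the clusters, are mostly expressed throughout the cell cycle, and supply histones that replace the standard ones in particular parts of the genome. Primary sensory neurons do not divide, so in a ganglion culture S-phase transcripts come from other cells. How the libraries selected RNA was not given in the sources used here, and that choice affects how well mRNAs without a poly(A) tail are captured.

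The labelled cell type was checked against its markers. Calls are by the limma test given below, by which 25.5% of all genes were lower and 24.9% higher. Among 7 sensory neuron markers, Rbfox3, Snap25, Isl1 and Elavl4 were below 1 CPM (counts scaled to library size, the deposited values off the log scale) in every sample. The 7 together summed to 57.6 to 58.4 CPM in high glucose and 86.7 to 91.2 CPM in control, with 5 lower and none higher. Most of this sum was Uchl1, at 47.7 to 48.6 CPM in high glucose and 56.7 to 60.6 CPM in control. The 6 fibroblast markers summed to 50938 to 53531 CPM in high glucose and 54350 to 56550 CPM in control, mostly from the collagen genes Col1a1 and Col3a1. Of these 6, Lum, Dcn, Pdgfra and Col3a1 were higher (4.45-fold, 2.35-fold, 1.84-fold and 1.21-fold), Col1a1 and Thy1 were lower (1.33-fold and 1.11-fold), and the median log2 fold change was 0.58. The Thy1 call was lost with plain read totals (adjusted p = 0.168 by limma). The Col1a1 and Col3a1 calls were lost after quantile normalization. That method gives genes of equal rank the same value in every sample. For genes at such high levels this loss therefore does not bear on their change. The 7 markers of Schwann cells and satellite glia, all lower in high glucose, summed to 284.0 to 314.1 CPM against 462.9 to 483.8 CPM, and the 4 mural markers to 3834 to 3925 CPM against 8021 to 8124 CPM. Most of the mural sum was Acta2, at 2840 to 2899 CPM in high glucose and 6690 to 6792 CPM in control. Of the mural markers 3 were lower, and Pdgfrb did not pass. The 5 macrophage markers summed to 11.2 to 12.1 CPM in high glucose and 9.58 to 11.1 CPM in control, with Csf1r higher (log2 fold change 0.68), Adgre1 lower (-1.27) and 3 that did not pass. The 3 measured endothelial markers, none of which passed, summed to 0.160 to 0.333 CPM in high glucose and 0.259 to 0.468 CPM in control. The part of these shifts in the histone results was not tested. In such bulk samples, fewer cells of a type and less RNA per cell cannot be told apart.

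The mRNA table held 28780612 to 33108451 reads per sample. Levels below are CPM on the authors' scaling, and each log2 fold change is high glucose minus control with its standard error (SE), from limma's moderated test with Benjamini-Hochberg adjustment over all 16551 genes and a threshold of 0.05. By this test 50.5% of all genes were called, 25.5% lower and 24.9% higher in high glucose. The authors' scaling factors did not overlap between groups (1.03 to 1.05 in high glucose, 0.959 to 0.964 in control). Scaling to plain read totals raised the fold change of the median gene by 0.114 on the log2 scale and turned 4228 lower and 4126 higher calls into 2847 lower and 5932 higher. Small changes therefore depend on the scaling.

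Sequence upstream of 4 histone genes is shown as a description. Of the 48 rows, 29 could be matched 1 to 1 to a RefSeq gene with a promoter in the table at hand (build GRCr8, which is not the build of the deposited values). The 200 bases before the annotated start are given, 5′ to 3′, with matches to 3 motifs in capitals on either strand. The first is CCAAT, the core of the site bound by the factor NF-Y, which reads ATTGG when it lies on the opposite strand. The second is TATAAA, the core of the TATA box, which then reads TTTATA. The third is ATGCAAAT, the octamer bound by POU factors and best known from H2B genes, which then reads ATTTGCAT. No motif lies inside another. Hist1h1b encodes a linker histone, Hist1h2ah and Hist1h2ac encode core histone H2A, and H3f3b encodes the replacement variant of H3.
Hist1h1b (RefSeq H1f5), chr17:47421675-47421874, strand +: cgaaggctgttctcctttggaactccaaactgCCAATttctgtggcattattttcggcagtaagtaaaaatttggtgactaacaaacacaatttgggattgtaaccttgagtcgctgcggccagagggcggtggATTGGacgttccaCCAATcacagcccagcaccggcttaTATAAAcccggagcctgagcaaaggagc
Hist1h2ah, chr17:41812178-41812377, strand +: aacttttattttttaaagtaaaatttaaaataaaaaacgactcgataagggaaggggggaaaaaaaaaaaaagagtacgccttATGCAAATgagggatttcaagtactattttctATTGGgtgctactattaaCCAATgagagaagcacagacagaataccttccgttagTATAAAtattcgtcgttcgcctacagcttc
Hist1h2ac, chr17:47174415-47174614, strand +: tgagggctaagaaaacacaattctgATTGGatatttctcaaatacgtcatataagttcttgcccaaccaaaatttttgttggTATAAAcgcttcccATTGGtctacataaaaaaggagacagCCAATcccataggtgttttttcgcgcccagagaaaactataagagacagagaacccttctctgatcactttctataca
H3f3b, chr10:101757637-101757836, strand -: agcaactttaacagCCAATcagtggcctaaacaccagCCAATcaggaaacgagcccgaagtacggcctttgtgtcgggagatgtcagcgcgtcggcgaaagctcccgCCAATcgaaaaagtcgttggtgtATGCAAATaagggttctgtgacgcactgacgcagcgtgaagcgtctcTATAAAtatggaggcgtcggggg
In the full window of 300 bases, CCAAT was present in 20 of 22 replication-dependent promoters (90.9%), in 4 of 7 variant promoters and in 37.7% of 27457 promoters of the table. TATAAA was present in 15 of 22, 2 of 7 and 14.3%, and the octamer in 9 of 22, in 1 of 7 and in 1.64%. The 22 promoters were 3 of H1, 11 of H2A, 7 of H2B, 1 of H4 and 0 of H3 genes. The H4 promoter held none of the motifs. The octamer was in 5 of 11 H2A, 4 of 7 H2B and 0 of 3 H1 promoters. The variant with the octamer was H3f3b, whose stretch above also holds 3 CCAAT and 1 TATAAA. All 4 stretches shown hold CCAAT and TATAAA, which was not so for every promoter of the 22. These are matches of letters, not binding sites, and their part in the histone results was not tested.

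Replication-dependent histone mRNAs fell together in high glucose. Of 39 rows, 35 were lower, none was higher and 4 did not pass, against 25.5% of all genes lower and 24.9% higher. All 39 had a negative log2 fold change, with a median of -0.64, where the median over all genes was 0.01. A value at or below -0.64 was found in 10.5% of all genes, and in 6.53% of those with a mean level of at least 1 CPM. The 3 high-glucose samples lay entirely below the 3 control samples in 34 of 39 rows, against 28.9% of all genes. With plain read totals 31 rows were lower and none higher (median -0.52). The 9 variant rows behaved otherwise: 1 was lower, none was higher and 8 failed the test (median 0.02).

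**Figure D1:**
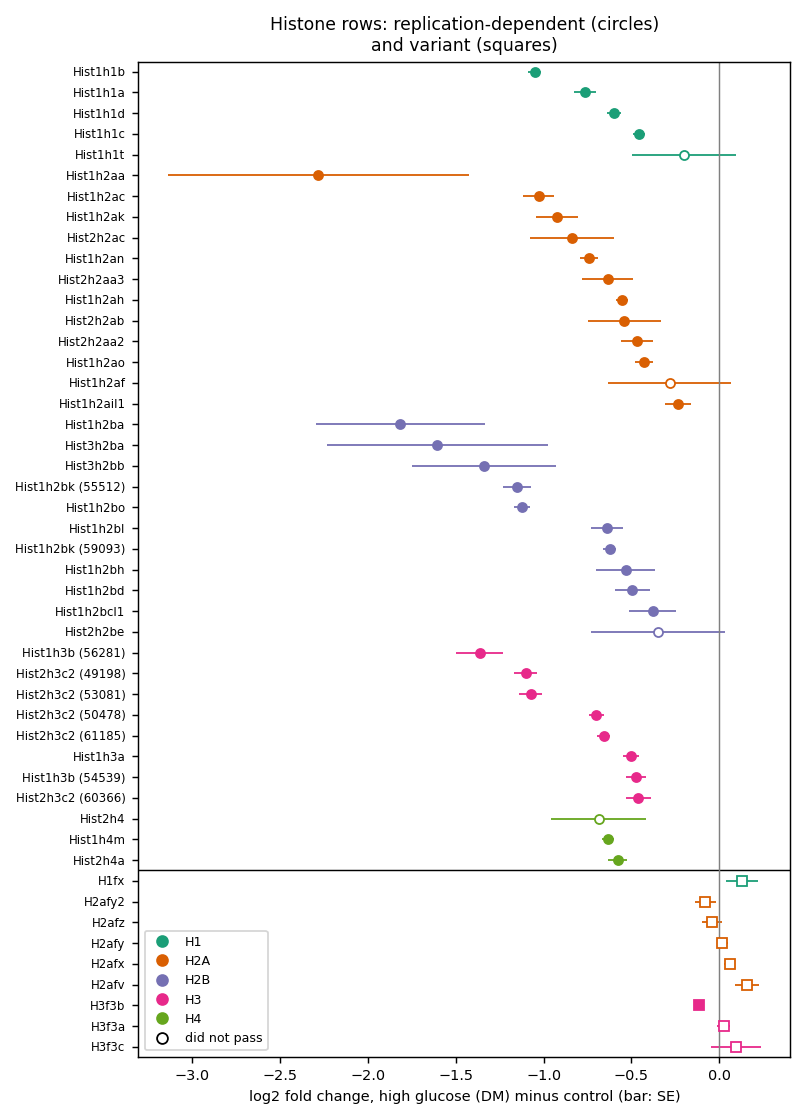
Log2 fold change (x axis, high glucose minus control, bars show SE) of each of the 48 histone rows, circles for replication-dependent and squares for variant rows, coloured by histone class, open where the limma test was not passed. All 39 replication-dependent rows lie left of 0, and the 9 variant rows lie between -0.12 and 0.16. Digits in brackets are the last of the Ensembl number for names that stand on several rows.

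Sums over the named rows do not depend on how counted reads were divided among those rows of a class. Reads dropped in the counting, or counted on histone rows outside the naming rule, are not in them. Such rows include LOC684828 (RefSeq H4f3), with 2704 reads in high glucose and 4925 in control. The order of the classes by size of change is therefore uncertain. All replication-dependent rows together took 0.0816%, 0.0833% and 0.0826% of mRNA reads in high glucose, against 0.124%, 0.124% and 0.124% in control. The groups did not overlap, and the sum was 1.62-fold lower in high glucose on the authors' scaling (log2 fold change -0.70 ± 0.02, or -0.59 with plain totals). By class, the H2B sum was 1.73-fold lower (-0.79 ± 0.03) and the H3 sum 1.69-fold lower (-0.76 ± 0.02). The linker H1 sum was 1.61-fold lower (-0.69 ± 0.02), the H4 sum 1.53-fold lower (-0.62 ± 0.03) and the H2A sum 1.48-fold lower (-0.56 ± 0.02). In each of the 5 classes every high-glucose sample was below every control sample. No p is given for these sums, since the rows were chosen with earlier results known.

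**Figure D2:**
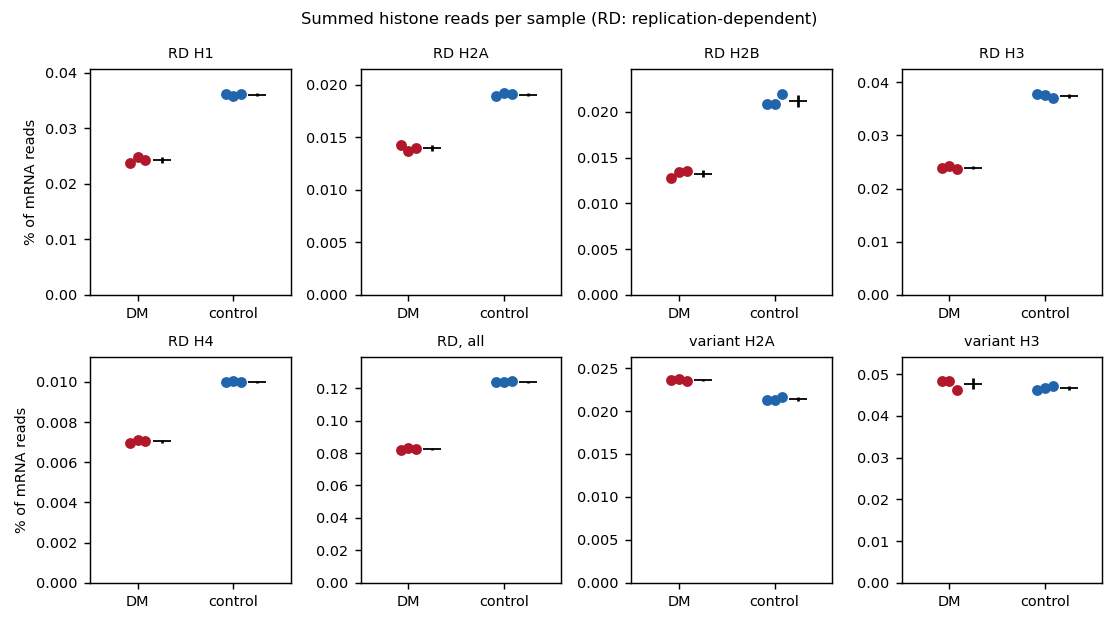
Summed reads of histone rows as a percentage of all mRNA reads (y axis, starting at 0) in each sample, high glucose (DM, red) left and control (blue) right, with mean and SD beside the points. The 5 replication-dependent (RD) classes and their total are lower in all 3 high-glucose samples, while the variant H3 sum overlaps between groups and the variant H2A sum is higher in all 3 high-glucose samples on this scale of plain read totals.

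Linker histones. Hist1h1b had 53.1, 56.2 and 58.5 CPM in high glucose, against 118.3, 114.6 and 114.7 CPM in control. It was the H1 gene with the lowest fold change, 2.07-fold lower (-1.05 ± 0.04, limma adjusted p = 4.34e-11). Hist1h1c had 87.9, 95.6 and 88.0 CPM in high glucose and 122.4, 123.7 and 125.8 CPM in control, and was 1.37-fold lower (-0.46 ± 0.03, adjusted p = 1.05e-07). The groups of both genes stood apart, yet the changes differed in size: Hist1h1b took 23.9% ± 0.78 (SD, n = 3) of the replication-dependent H1 reads in high glucose and 30.8% ± 0.45 in control. Hist1h1d and Hist1h1a lay between them (-0.60 ± 0.04 and -0.76 ± 0.06). Hist1h1t, the linker histone of the testis, had 0.583, 0.463 and 0.513 CPM in high glucose and 0.666, 0.534 and 0.592 CPM in control, on 48 and 51 reads. Its groups overlapped and it did not pass (-0.20 ± 0.30, adjusted p = 0.609).

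Core histone H2A. Hist1h2ah had 40.2, 41.0 and 40.3 CPM in high glucose, against 60.7, 58.0 and 59.95 CPM in control (-0.56 ± 0.03, limma adjusted p = 1.57e-08). Hist1h2ao had 41.3, 36.7 and 41.2 CPM against 54.2, 55.3 and 50.7 CPM (-0.43 ± 0.05, adjusted p = 9.27e-06). Both were lower in every high-glucose sample. Of the 12 H2A rows 11 were lower, and the lowest after Hist1h2aa was Hist1h2ac, at 9.15, 7.55 and 8.05 CPM in high glucose and 15.2, 16.9 and 18.2 CPM in control, 2.04-fold lower (-1.03 ± 0.09, adjusted p = 4.25e-07). Hist1h2ail1 had the smallest called change of the replication-dependent rows. It had 13.4, 13.0 and 12.0 CPM in high glucose and 14.0, 14.9 and 16.4 CPM in control (-0.24 ± 0.07, adjusted p = 0.0171), and its adjusted p was 0.0727 without high glucose 3, 0.0832 without control 3 and 0.197 with plain totals. Hist1h2aa, the H2A of the testis, rested on 0, 1 and 0 reads in high glucose, against 6, 1 and 3 reads in control. The groups did not overlap, though high glucose 2 (0.0479 CPM) and control 2 (0.0485 CPM) nearly met, and control over high glucose came to 10.8 (exact 95% interval 1.54 to 469.4, counting error only). The call for Hist1h2aa (adjusted p = 0.0406) was lost without high glucose 1 (0.0936) or 3 (0.0969) and without control 1 (0.187) or 3 (0.101). Hist1h2af, at 0.383, 0.559 and 0.425 CPM in high glucose and 0.702, 0.372 and 0.626 CPM in control, overlapped between groups and failed the test (-0.28 ± 0.35, adjusted p = 0.540).

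Core histone H2B. The larger of the 2 rows named Hist1h2bk (ENSRNOG00000059093) had 55.7, 58.1 and 54.1 CPM in high glucose, against 83.3, 85.8 and 89.7 CPM in control (-0.62 ± 0.04, limma adjusted p = 1.07e-08). Hist1h2bo had 23.5, 25.5 and 24.6 CPM in high glucose and 51.6, 53.2 and 55.4 CPM in control, and was 2.18-fold lower (-1.12 ± 0.04, adjusted p = 1.67e-10). In both, the control samples all lay above the high-glucose samples. The other Hist1h2bk row (ENSRNOG00000055512) was lower by more than its namesake, at 18.5, 16.4 and 21.1 CPM against 43.4, 37.7 and 42.8 CPM (-1.15 ± 0.08, adjusted p = 4.74e-08). Of the 11 H2B rows 10 were lower. The row Hist1h2bcl1 was called with overlapping groups, at 9.81, 12.7 and 16.5 CPM in high glucose and 16.0, 16.8 and 16.8 CPM in control (-0.38 ± 0.13, adjusted p = 0.0308), and its adjusted p lay above 0.05 on leaving out any sample except high glucose 3, at up to 0.136 (log2 fold change -0.19) without high glucose 1. Hist2h2be, at 0.517, 0.271 and 0.660 CPM in high glucose and 0.630, 0.437 and 0.693 CPM in control, overlapped and failed the test (-0.35 ± 0.38, adjusted p = 0.484).

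The H2B rows with the lowest fold changes were all scarce. Hist1h2ba, the H2B of the testis, was at 0.0833, 0.303 and 0.279 CPM against 0.666, 0.663 and 0.693 CPM (-1.81 ± 0.48, adjusted p = 0.00637 by limma). Without high glucose 1 the Hist1h2ba value was -1.21 (adjusted p = 0.0146). Hist3h2bb was at 0.350, 0.463 and 0.161 CPM against 0.594, 0.825 and 0.862 CPM (-1.34 ± 0.41, adjusted p = 0.0149). Hist3h2ba, on 8 reads in high glucose and 32 in control, was at 0.117, 0.0798 and 0.103 CPM against 0.738, 0.307 and 0.118 CPM (-1.60 ± 0.63, adjusted p = 0.0492). In these 3 rows the groups did not overlap, but control 3 nearly touched the high-glucose samples for Hist3h2ba. The Hist3h2bb call was lost without high glucose 3 (log2 fold change -0.90, adjusted p = 0.0546), control 2 (0.0503) or control 3 (0.0545). The Hist3h2ba call was lost on leaving out any sample except control 3, with a log2 fold change of -0.95 and an adjusted p of 0.256 without control 1, and a log2 fold change of -2.27 without control 3.

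Core histone H3. The name Hist2h3c2 stands on 5 rows, which the reference resolves to 1 gene, so the rows are told apart only by their Ensembl numbers. The row with the most reads (ENSRNOG00000050478) had 56.5, 59.0 and 52.4 CPM in high glucose, against 87.4, 92.4 and 93.1 CPM in control (-0.70 ± 0.04, limma adjusted p = 1.3e-08). The next (ENSRNOG00000053081) had 45.2, 41.5 and 50.6 CPM in high glucose and 103.4, 97.6 and 87.8 CPM in control, 2.11-fold lower (-1.07 ± 0.07, adjusted p = 1.63e-08). All 5 rows were lower with no overlap, with log2 fold changes from -1.10 ± 0.07 to -0.46 ± 0.07. Hist1h3b stands on 2 rows, which differed more: ENSRNOG00000056281 had 4.42, 4.52 and 3.21 CPM in high glucose and 9.63, 11.5 and 9.86 CPM in control (-1.36 ± 0.13, adjusted p = 1.41e-06), and ENSRNOG00000054539 had 26.9, 27.2 and 23.4 CPM against 35.7, 35.2 and 36.7 CPM (-0.48 ± 0.06, adjusted p = 1.0e-05). H3 genes encode nearly the same protein from similar DNA, and the counting may have divided or dropped reads that match several copies, so a difference between single rows is uncertain. Hist1h3a had a value of -0.50 ± 0.05, and all 8 H3 rows were lower.

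Core histone H4. Hist1h4m had 47.6, 47.3 and 48.4 CPM in high glucose, against 75.7, 73.9 and 72.5 CPM in control (-0.63 ± 0.03, limma adjusted p = 2.09e-09). Hist2h4a had 18.3, 20.1 and 18.8 CPM in high glucose and 27.1, 29.0 and 29.3 CPM in control (-0.58 ± 0.05, adjusted p = 9.88e-07). Both stood apart from control in every sample. Hist2h4 had 1.05, 0.686 and 1.39 CPM in high glucose and 1.31, 1.83 and 1.74 CPM in control, with overlap. Its value of -0.69 ± 0.27 was as low as those of the other H4 rows but did not pass (adjusted p = 0.0509). The adjusted p of Hist2h4 lay below 0.05 without high glucose 3 (log2 fold change -0.92, adjusted p = 0.0169) or control 1 (adjusted p = 0.0375). With all samples kept, it did so after quantile normalization (0.0348) and with a pseudocount of 2 reads (0.0463). The same held on dropping genes of low level (0.0410 and 0.0411) and with voom precision weights (0.0475). In the other alternatives it lay above 0.05, at up to 0.206.

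The fall was seen in the Hist1 and Hist2 clusters, and less firmly in the Hist3 cluster. Rows named Hist1, whose matched genes lie on chromosome 17 in the RefSeq build, were lower in 23 of 25 cases, with a median of -0.62. Rows named Hist2, matched on chromosome 2, were lower in 10 of 12, with a median of -0.65, and both rows named Hist3, matched on chromosome 10, were lower. Among members that stand next to each other in the RefSeq order, both genes were lower in 5 of 7 pairs. With 35 of 39 rows lower, most pairs would have both genes lower at any position, so this count does not bear on position. One such pair, Hist1h4m and Hist1h2ao, had values of -0.63 and -0.43, and another, Hist2h2ab and Hist2h2ac, had -0.54 and -0.84. The other pairs in which both genes passed were Hist1h2bd with Hist1h2ak, Hist3h2ba with Hist3h2bb and Hist1h2aa with Hist1h2ba. The pairs that did not were those of Hist2h2be, with Hist2h2ac and with Hist2h2aa2. The Hist2h2ab call (adjusted p = 0.0442) was lost on leaving out any sample except high glucose 1, at up to 0.172 without high glucose 2. Hist1h2bh, another of the 7 rows whose calls were lost on leaving out a sample (-0.53 ± 0.17, adjusted p = 0.0173), had an adjusted p of 0.0806 without high glucose 1 and 0.0858 without control 3.

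**Figure D3:**
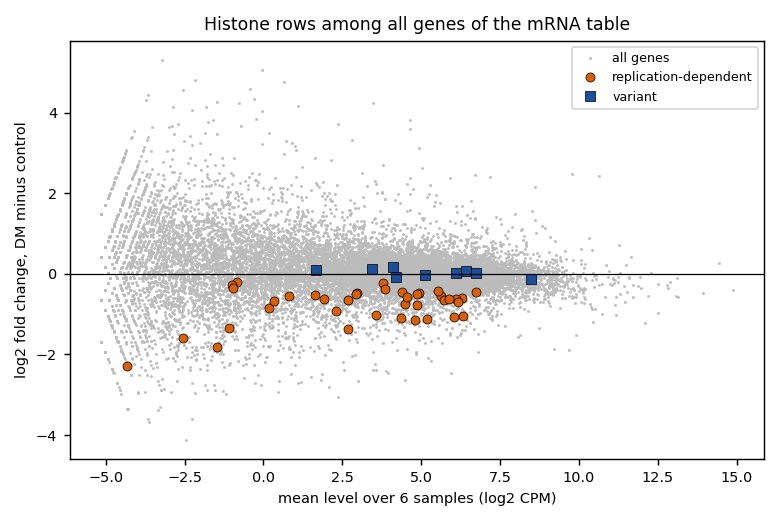
Log2 fold change (y axis) against mean log2 CPM over the 6 samples (x axis) for all 16551 genes (grey), with the 39 replication-dependent rows as circles and the 9 variant rows as squares. The replication-dependent rows form a band below 0 over the whole range of levels, and their widest values are at the scarce end. The variant rows lie close to 0.

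Variants of H3. H3f3b and H3f3a encode the same replacement histone, which is laid down outside replication at active genes and elsewhere. H3f3b had 350.4, 345.2 and 342.5 CPM in high glucose, against 373.2, 373.8 and 379.6 CPM in control. It was the only variant that passed, 1.09-fold lower with no overlap (-0.12 ± 0.02, limma adjusted p = 0.000195), but the call was lost with plain totals (log2 fold change -0.00, adjusted p = 0.875) and after quantile normalization (-0.04, adjusted p = 0.139). H3f3a had 110.7, 113.7 and 101.5 CPM in high glucose and 105.2, 108.1 and 107.0 CPM in control, which overlapped (0.02 ± 0.04, adjusted p = 0.636). H3f3c, listed by RefSeq as a pseudogene, had 2.88, 3.43 and 3.65 CPM against 2.86, 3.12 and 3.33 CPM (0.09 ± 0.14, adjusted p = 0.625).

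Variants of H2A. H2afz and H2afv encode the H2A.Z proteins, found at gene starts. H2afz had 35.3, 36.1 and 31.4 CPM in high glucose and 34.6, 34.0 and 37.1 CPM in control (-0.04 ± 0.06, limma adjusted p = 0.574). H2afv had 17.9, 19.7 and 17.0 CPM against 15.8, 17.6 and 15.6 CPM (0.16 ± 0.07, adjusted p = 0.0790). H2afv was under 0.05 without high glucose 3 (0.0402) or control 2 (0.0349) and with plain totals (0.00577). H2afx, whose protein is phosphorylated beside DNA breaks, had 87.2, 84.4 and 90.6 CPM in high glucose and 85.7, 83.0 and 83.0 CPM in control, with overlap (0.06 ± 0.03, adjusted p = 0.151). H2afy and H2afy2 encode the macroH2A proteins, linked to silent chromatin. H2afy had 67.7, 69.2 and 70.8 CPM against 67.2, 68.9 and 69.3 CPM (0.02 ± 0.03, adjusted p = 0.701), and H2afy2 had 18.0, 17.4 and 18.6 CPM against 18.6, 18.3 and 20.1 CPM (-0.08 ± 0.06, adjusted p = 0.278). The linker variant H1fx had 11.1, 10.7 and 12.2 CPM in high glucose and 10.6, 9.04 and 11.6 CPM in control (0.13 ± 0.09, adjusted p = 0.277). In all 6 of these rows the groups overlapped. With plain totals 5 variant rows were higher (H2afv, H1fx, H2afx, H3f3a and H2afy) and none lower, so a direction for the variants cannot be given apart from the scaling.

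The makeup of each class does not depend on the scaling. Reads on H3f3a, H3f3b and H3f3c made up 66.9%, 66.7% and 66.04% of all H3 reads in high glucose, against 55.0%, 55.4% and 56.1% in control. Reads on the 5 variant H2A rows made up 62.3%, 63.4% and 62.8% of all H2A reads in high glucose and 53.0%, 52.5% and 53.2% in control. H1fx took 4.66%, 4.32% and 4.90% of H1 reads in high glucose and 2.74%, 2.36% and 2.98% in control. In each case the 3 high-glucose samples lay above the 3 control samples. These are shares of reads and not of molecules, since the transcripts differ in length, and they cover the named rows alone.

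**Figure D4:**
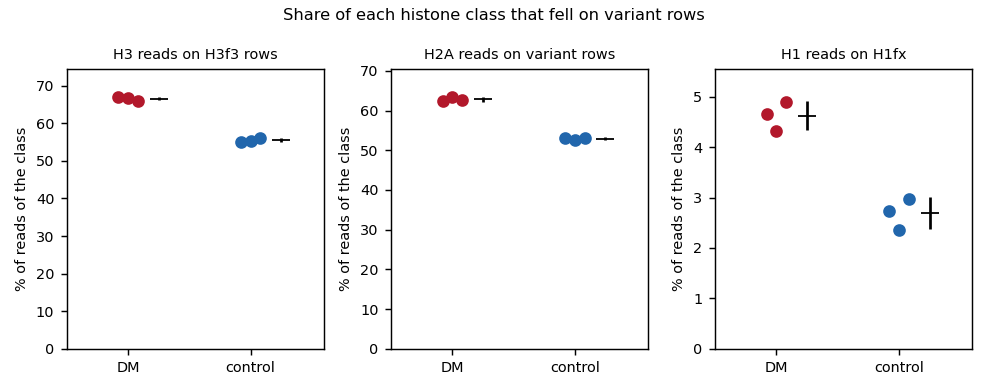
Percentage of the reads of a histone class that fell on variant rows (y axis, starting at 0) in each sample, high glucose (DM, red) left and control (blue) right, with mean and SD beside the points. For H3 the means are 66.5% in high glucose and 55.5% in control, for H2A 62.8% and 52.9%, and for H1 4.62% and 2.69%.

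Genes that make and process replication-dependent histone mRNA did not move as a block. Among 17 measured genes, 5 were lower and 2 higher, and the median log2 fold change was -0.00 (3 lower and 8 higher with plain totals). Of all 16551 genes 25.5% were lower and 24.9% higher, or 2847 and 5932 genes with plain totals, so the share of this list that was lower is near that of all genes. Slbp, which encodes the protein that binds the stem-loop, had 35.1, 32.4 and 34.2 CPM in high glucose and 34.0, 33.9 and 34.0 CPM in control (-0.00 ± 0.04, limma adjusted p = 0.974, but 0.11 and 0.0378 with plain totals). Npat, the coactivator of histone gene transcription, was 1.06-fold higher (0.08 ± 0.03, adjusted p = 0.0311), but its adjusted p was at least 0.0642 on leaving out any sample except high glucose 3. Casp8ap2 and Lsm10, of the processing machinery, did not pass (0.05 ± 0.04 and -0.05 ± 0.07), although Casp8ap2 did with plain totals (0.16, adjusted p = 0.00195). Lsm11, a subunit of the U7 particle that guides the cleavage of histone mRNA, was 1.43-fold lower (-0.51 ± 0.15, adjusted p = 0.0104, and 0.0558 without control 3). Sympk was 1.33-fold lower with no overlap (-0.41 ± 0.04, adjusted p = 4.47e-07) and passed in every alternative. Eri1 and Cdk2 were lower (-0.16 ± 0.04 and -0.16 ± 0.05), but not with plain totals (adjusted p = 0.316 and 0.513). Zfp473 was higher (0.51 ± 0.17, adjusted p = 0.0262, and 0.0878 at most in the alternatives). Of the E cyclins that drive entry into S phase, Ccne2 was lower (-0.28 ± 0.05, adjusted p = 0.000227) and Ccne1 did not pass (0.15 ± 0.06, adjusted p = 0.0786). Ccne1 was below 0.05 without high glucose 2 (0.0201) or control 2 (0.0404) and with plain totals (0.26, adjusted p = 0.00359).

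Histone chaperones and exchange factors, which carry histones to DNA and swap variants in, included 17 lower and 3 higher genes of 34, with a median of -0.10 (11 lower and 10 higher with plain totals), against 25.5% of all genes lower and 24.9% higher (2847 and 5932 genes with plain totals). Chaf1b, of the complex that places histones behind the replication fork, was 1.36-fold lower (-0.45 ± 0.09, limma adjusted p = 0.000804), whereas its partner Chaf1a did not pass (-0.03 ± 0.05). Nasp, a carrier of H3 and H4, was 1.16-fold lower (-0.21 ± 0.03), and Asf1b did not pass (-0.11 ± 0.07). Of the factors that place the replacement H3, Atrx was 1.12-fold higher (0.16 ± 0.03, adjusted p = 0.000429), and Daxx and Hira did not pass (-0.05 ± 0.05 and -0.08 ± 0.25). Hira varied among controls, with 7.56 CPM in control 2 against 3.80 and 3.06 CPM in the others. Of Ubn1, Ubn2 and Cabin1, also in the list, Ubn2 was higher (0.20 ± 0.04, adjusted p = 0.000874). Cabin1 was lower (-0.18 ± 0.03, adjusted p = 0.000147, and 0.0715 with plain totals). Ubn1 did not pass (0.07 ± 0.03, adjusted p = 0.0664, and 0.000142 with plain totals). Hjurp, the chaperone of the centromeric H3 variant, was 1.31-fold lower (-0.39 ± 0.05, adjusted p = 4.55e-05). That variant, Cenpa, had a value of -0.35 ± 0.12 (adjusted p = 0.0284), which lay above 0.05 without high glucose 1 (0.104) or 3 (0.0729), control 2 (0.125) or control 3 (0.104).

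DNA replication genes, which share S phase with the histone genes, included 29 lower and 3 higher genes of 47, with a median of -0.17 (15 lower and 7 higher, median -0.05, with plain totals), against 25.5% of all genes lower and 24.9% higher (2847 and 5932 genes with plain totals). Ccna2, the S-phase cyclin, had 63.6, 63.9 and 68.0 CPM in high glucose, against 99.4, 97.4 and 94.9 CPM in control (-0.58 ± 0.03, limma adjusted p = 9.7e-09). Uhrf1, which maintains DNA methylation after replication, was 1.41-fold lower (-0.49 ± 0.03, adjusted p = 4.04e-08). Ccna2 and Uhrf1 stood apart from control without overlap. Pcna, the sliding clamp of the replication fork, was 1.13-fold lower (-0.17 ± 0.04, adjusted p = 0.00143, and 0.216 with plain totals). Rrm2, which supplies deoxynucleotides, did not pass (-0.09 ± 0.04, adjusted p = 0.106, and 0.0240 without high glucose 3).

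**Figure D5:**
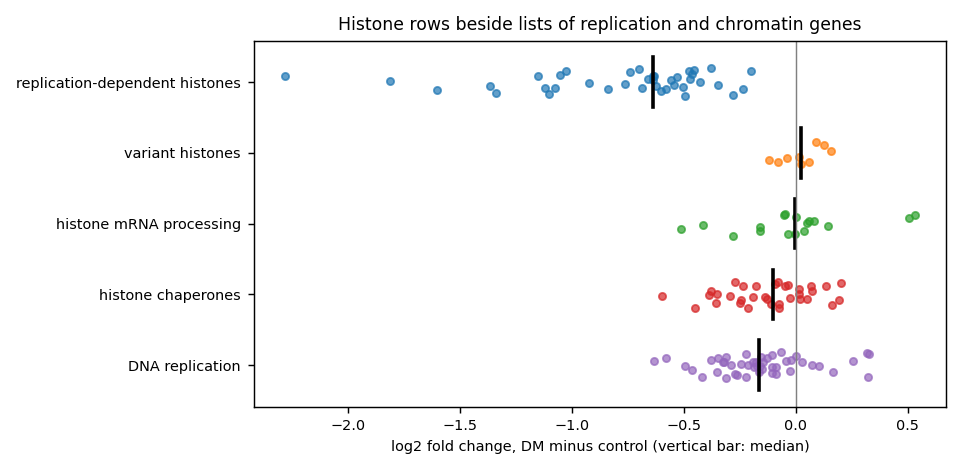
Log2 fold change (x axis, high glucose minus control) of the members of 5 lists, 1 point per gene and a vertical bar at the median. Medians are -0.64 for replication-dependent histones, 0.02 for variant histones, -0.00 for histone mRNA processing, -0.10 for histone chaperones and -0.17 for DNA replication.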

How the data were processed

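RNA was sequenced from 6 samples, grouped by their titles. The authors deposited log2 values named as voom-normalized in the file names. The submitters' processing notes name featureCounts 1.6.0, HISAT2 2.1.0, fastp 0.19.4 and the build Rnor_6.0, without roles, and the annotation and the strand of counting were not given in the sources used here. The values are log2 of reads plus 0.5, divided by the scaled library size (CPM). Worked back, 100% came within 0.01 of a whole read. CPM are the deposited values taken off the log scale. Sums, shares and read counts used the recovered reads.

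Tests used limma 3.58.1 in R 4.3.3 on the deposited log2 values, with group as the term and a mean-variance trend, two-sided. The test was also run on simulated reads in which few genes changed and all genes had the same dispersion. These data differ from that setting, so that run does not show how the test performs here. No pair of samples was a copy: the mean chi-square per gene was 2.91 to 4.62 within groups and 82.2 to 88.6 between. Figures used matplotlib 3.10.9. The table of lncRNA has no row matching the rule and was not used.

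The members and lists were chosen with earlier results of these data known. Named with values in every sample were the variants with at least 60 reads and, of the replication-dependent rows, the 2 with most reads per class, the 5 lowest and 2 highest fold changes and those not passing. From the lists, 20 genes tied to histone mRNA, chaperones or S phase were named as planned. Chosen after their values were seen were Hist1h2ac, Hist1h1a, Hist1h1d, Hist1h3a, the lesser Hist1h2bk row, the larger Hist1h3b row, Hist1h2bcl1, Hist2h2ab, Hist1h2bh and the neighbouring pairs. The list genes Sympk, Eri1, Cdk2, Zfp473, Ubn1, Ubn2 and Cabin1 were also chosen after their values were seen. Alternatives changed the scaling, pseudocount, filter, variance model, block and samples, and the rows counted as replication-dependent. The last was varied once as planned and once, leaving out testis genes, as chosen after seeing the data.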

Additional observations from a re-analysis of the deposited data

How the results depend on the processing

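Of the 35 replication-dependent rows that were lower, 28 passed in every alternative they entered and 7 did not. Their count was 28 with one variance prior for all genes, 31 with plain totals, 34 with the replicate block, 36 with a pseudocount of 2 reads, and 29 to 32 on leaving out a sample, with none higher in any of these. Without Hist3h rows and Hist1h1t it was 33, and 31 without the testis genes Hist1h2aa and Hist1h2ba as well, a choice made after seeing the data. Same-numbered samples showed little shared deviation from their group means (correlations -0.0921, -0.0433 and 0.0255). Weak correlations cannot exclude a pairing, which no label states. With the replicate block 4084 genes were lower and 3968 higher, against 4228 and 4126 without it, and 1 variant row, H2afv, was higher.

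The number of variant rows called lower was 1, and it was 0 with plain totals and after quantile normalization. The number higher was 0, and it was 5 with plain totals and 0 to 1 on leaving out a sample (1 lower throughout). Among histone rows that did not pass, the values that changed sign with plain totals were those of H2afz (0.073) and H2afy2 (0.034). After quantile normalization it was that of H3f3c (-0.025). On leaving out a sample, values ran from -0.080 (without high glucose 2) to 0.020 (without high glucose 3) for H2afz, from -0.010 to 0.072 (the same samples) for H3f3a, from -0.00015 (without high glucose 3) to 0.032 for H2afy, and from -0.62 (without high glucose 3) to 0.020 (without high glucose 2) for Hist2h2be. The summed level of all variants was 0.068 and that of variant H3 0.030 with plain totals, against -0.05 and -0.08 with the authors' scaling. Why the group scaling factors differ was not tested. The 7 rows with the fewest reads, 11 to 99 in all, had SEs of 0.30 to 0.86 on the log2 scale, so changes of the median size (-0.64) could go undetected there.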

Other observations

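The mRNA table also holds 8 rows outside the naming rule that RefSeq lists as histone genes or their pseudogenes, found by the gene number in their LOC names or by a lower-case symbol. Of these, 7 were lower and 1 did not pass, against 25.5% of all genes lower and 24.9% higher. LOC684762, which RefSeq names H3c13, had 47.3, 47.1 and 45.2 CPM in high glucose, against 82.5, 78.4 and 79.6 CPM in control (-0.78 ± 0.03, limma adjusted p = 4.51e-10). LOC684828, named H4f3, had 27.9, 30.3 and 26.9 CPM against 57.6, 55.4 and 54.6 CPM (-0.98 ± 0.05, adjusted p = 1.21e-09). In both, the groups did not overlap. LOC102548682 (H4cl1), LOC680322 (H2ac12), hist1h2ail2 and LOC100364835 (H2bc6) had values of -1.02 ± 0.10, -0.82 ± 0.09, -0.68 ± 0.07 and -0.61 ± 0.06. LOC100363125 (H2al3), on 31 reads in high glucose and 40 in control, did not pass (-0.51 ± 0.44, adjusted p = 0.360).

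The seventh lower row was LOC690171, which RefSeq lists as H3f3a-ps3, a pseudogene of the replacement H3. It had 12.5, 13.8 and 11.8 CPM in high glucose and 21.6, 23.5 and 23.1 CPM in control (-0.84 ± 0.07, adjusted p = 2.07e-07 by limma). H3f3a itself had 0.02 ± 0.04. The difference between the pseudogene row and H3f3a was not tested. The deposited row is tied to the pseudogene only through the gene number in its name, and reads of other H3 copies could have been counted there.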
